A study of Homo sapiens with 4 samples.

Results

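The regions described here are the ChIP-seq peaks on the arms of human chromosome 9 in OECM1, an established cell line from a head and neck cancer. Members were taken by position (GRCh37): rows of 4 peak lists that lie on 9p from 3 to 44.4 Mb or on 9q from 68.5 to 138.2 Mb. The 4 lists together held 11483 peaks, of which 713 were members, 106 on 9p and 607 on 9q. A further 228 chromosome 9 peaks lay outside both spans and are not members, and no peak crossed a boundary of the spans. The chromosome was selected on measured values, its peak numbers in control and edited cells. Ratios of peak numbers on it are therefore a description, and no p-value was computed.

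Chromatin was immunoprecipitated with antibodies to either ARID3B or KDM4C and sequenced. All cells had received Cas9, either with a control construct (Cas9-ctrl, called control cells) or directed at ARID3B (ARID3B-Cas9, called edited cells). The titles of the edited samples carry the letters KD, whereas the title of the series has knockout. The sources used here do not give whether the edited cells were 1 clone or how much ARID3B they kept, and a peak list cannot check the identity of the cells. Each of the 4 groups (ARID3B control, ARID3B edited, KDM4C control, KDM4C edited) held 1 library, so no difference has a replicate check. The 95% intervals below are exact and cover counting error only.

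ARID3B is a DNA-binding protein of the AT-rich interaction domain family. KDM4C is a demethylase that removes methyl groups from lysine 9 of histone H3, a mark of compact chromatin. Its own gene lies on 9p, as does CDKN2A, which encodes cell cycle inhibitors and is often deleted in head and neck cancer. Chromosome 9 carries a large block of heterochromatin on the long-arm side of its centromere, and sequence on both sides of it occurs in several near-identical copies. The peaks were called without an input library, so each records only that tags lay denser than in their surroundings.

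The libraries held 24439463 and 20878112 filtered tags with the ARID3B antibody in control and edited cells, and 20668533 and 16209985 with the KDM4C antibody. Edited libraries were thus the shallower ones. Tags were 75 bases long, but 72 in the edited KDM4C library. The smallest peaks had 9 or 10 tags. Outside the chromosome 9 spans the edited lists were nevertheless longer, at 4466 against 3090 ARID3B peaks, a ratio of 1.45 (95% interval 1.38 to 1.51), and 1784 against 1430 KDM4C peaks, a ratio of 1.25 (1.16 to 1.34).

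The first question was how peaks were spread over the arms. On 9q, the ARID3B antibody gave 145 peaks in control and 319 in edited cells, or 2.08 and 4.58 per Mb. On 9p it gave 29 and 49, or 0.700 and 1.18 per Mb. The KDM4C antibody gave 51 and 92 peaks on 9q and 13 and 15 on 9p. The long arm thus had more peaks per Mb than the short arm in each of the 4 libraries.

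The ratio of edited to control peaks on 9q was 2.2 (1.8 to 2.7) for ARID3B and 1.8 (1.27 to 2.59) for KDM4C. The KDM4C ratio varied with the limit set on peaks. The caller's score is its p-value on a log scale, with a cutoff of 50. With a score of at least 60 the KDM4C ratio was 1.61 (0.865 to 3.08, 18 to 29 peaks). With a score of at least 100 it turned to 0.625 (0.161 to 2.17, 8 to 5 peaks). Among peaks enriched at least 10-fold over their local background it was 1.18 (0.644 to 2.19, 22 to 26). Each of these intervals includes both 1 and the 1.8 found with all peaks, so counting error does not separate the ratios from either. Outside the arms 331 control and 314 edited KDM4C peaks scored at least 100. Fewer edited than control peaks at that limit was thus not particular to 9q. With all peaks, and relative to the ratio outside the arms, the 9q values were 1.52 (1.24 to 1.88) and 1.45 (1.01 to 2.09) times as high. On 9p the ratio was 1.69 (1.05 to 2.77) for ARID3B and 1.15 (0.512 to 2.63) for KDM4C. Both 9p intervals include the ratio found outside the arms. The arms were not separated by counting error: the 9q ratio over the 9p ratio was 1.30 (0.760 to 2.20) for ARID3B and 1.56 (0.629 to 3.83) for KDM4C. Nor were the antibodies separated on 9q, where the ARID3B ratio over the KDM4C ratio was 1.22 (0.803 to 1.84).

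**Figure D1:**
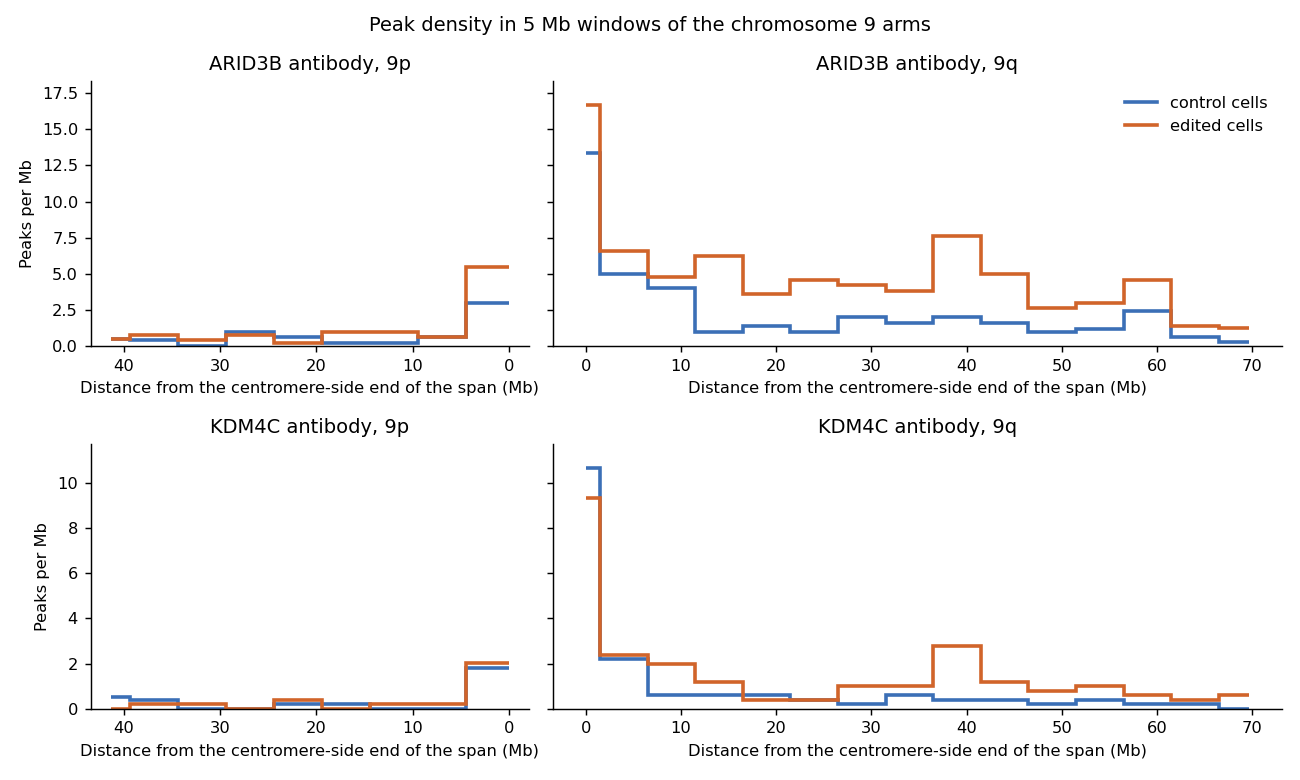
Peaks per Mb (vertical axis) in 5 Mb windows against distance from the centromere-side end of each span in Mb (horizontal axis), for control and edited cells, with 1 library per line. On 9q the edited ARID3B line lies above the control line in every window. Both are highest in the innermost window, at 16.7 and 13.3 peaks per Mb, while most of 9p holds at most 1 peak per Mb.

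Windows of 5 Mb on a fixed grid, clipped at the ends of the spans, showed where on 9q the additional peaks lay. A window was called higher when the edited list had at least 2 times the control peaks, among windows with at least 5 peaks in both lists together. With the ARID3B antibody, 11 of 15 windows on 9q were called higher, against 33.1% of such windows on chromosomes 1 to 22 and X. None of the 15 was called lower, against 6.93% over the same chromosomes. With the KDM4C antibody, 7 of 11 windows with enough peaks were called higher, against 36.2%, and none lower, against 5.63%. The edited ARID3B list had more peaks than the control list in all 15 windows, against 72.3% of windows with enough peaks on those chromosomes. For KDM4C this held for 9 of 11 windows, against 63.4%.

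The 3 windows nearest the centromere had the most ARID3B peaks in control cells and the smallest ratios. From 68.5 to 70 Mb there were 20 peaks in control and 25 in edited cells, from 70 to 75 Mb 25 and 33, and from 75 to 80 Mb 20 and 24. The last of these had the lowest ARID3B ratio of 9q, at 1.20 (0.635 to 2.29). The next window outwards, from 80 to 85 Mb, had the highest, with 5 peaks in control and 31 in edited cells (6.2, 2.39 to 20.4). The change between neighbouring windows was in the control list, which fell from 20 to 5 peaks, while the edited list went from 24 to 31.

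Beyond 80 Mb every window had a higher ARID3B ratio than the 3 inner ones. Its 12 windows had 1 to 12 ARID3B peaks each in control cells and 4 to 38 in edited cells, with ratios between 1.92 and 6.2. The interval of every one of the 12 ratios included the pooled ratio of 2.96, so counting error does not separate the windows from a shared value. The window from 105 to 110 Mb was the richest of the 12 in edited cells, with 10 ARID3B peaks in control and 38 in edited cells. It also had the highest KDM4C ratio, with 2 peaks in control and 14 in edited cells (7.0, 1.61 to 63.5). The outermost window, from 135 to 138.2 Mb, had the fewest, at 1 and 4 for ARID3B and 0 and 2 for KDM4C.

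The border at 80 Mb on 9q and a border at 40 Mb on 9p were drawn after these counts were seen, so the values for each side are descriptions. The outer 9q, from 80 to 138.2 Mb, had 80 ARID3B peaks in control and 237 in edited cells, and the ratio was 2.96 (2.29 to 3.87). With the KDM4C antibody it had 21 and 56, a ratio of 2.67 (1.59 to 4.64). The inner 9q, from 68.5 to 80 Mb, had 65 and 82 with the ARID3B antibody (1.26, 0.9 to 1.77) and 30 and 36 with the KDM4C antibody (1.20, 0.719 to 2.02). The outer ratio was 2.34 (1.52 to 3.62) times the inner one for ARID3B and 2.21 (1.05 to 4.74) times for KDM4C. Pooled over its windows, the inner 9q thus had a ratio whose interval includes that outside the arms with both antibodies. Single KDM4C windows did not all follow the border. On the inner side, the window from 75 to 80 Mb went from 3 to 10 KDM4C peaks (3.33, 0.858 to 18.8) and was called higher. On the outer side, the window from 85 to 90 Mb went from 3 to 2, and that from 90 to 95 Mb had 2 in both lists.

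**Figure D2:**
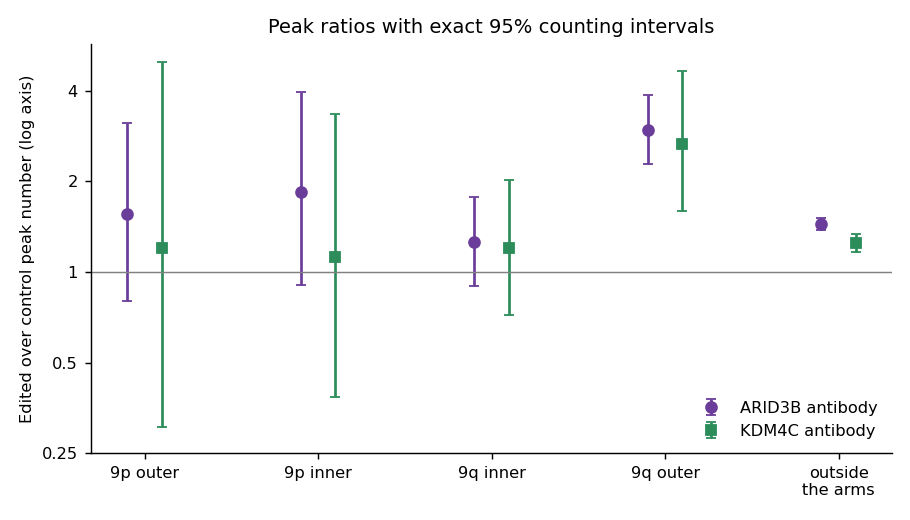
Edited over control peak number (vertical log axis) in 4 stretches of the chromosome 9 arms and outside the arms (horizontal axis), for each antibody, with bars for exact 95% counting intervals. The outer 9q stands highest at 2.96 for ARID3B and 2.67 for KDM4C, and the values on 9p have wide intervals.

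The short arm was sparse away from the centromere. From 3 to 40 Mb, 37 Mb of sequence held 16 peaks with the ARID3B antibody in control and 25 in edited cells, and the KDM4C antibody gave 5 and 6. The window from 15 to 20 Mb had 5 and 4 ARID3B peaks and no KDM4C peak in either list. The window from 10 to 15 Mb had 0 and 2 for ARID3B and 0 and 1 for KDM4C. The windows from 25 to 30 and from 30 to 35 Mb went from 1 to 5 ARID3B peaks each. With the window from 5 to 10 Mb (2 and 4 peaks), they were the 3 windows called higher among the 6 of 9p with enough peaks, against the same 33.1%, and none was called lower. The 4.4 Mb next to the centromere held about as many peaks as all the rest of the arm, at 13 and 24 for ARID3B and 8 and 9 for KDM4C.

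No library had a peak inside the KDM4C gene, whose span on 9p runs from 6.76 to 7.18 Mb. That span is 0.42 Mb long, and from 3 to 40 Mb the arm held 0.135 to 0.676 peaks per Mb in each list. Whether the span holds fewer peaks than the rest of the arm was not tested. Within 1 Mb of the gene the ARID3B lists had 1 peak in control and 3 in edited cells, and the KDM4C lists had 2 and 1. One place, from 6594515 to 6594946, was called in all 4 libraries and lay 165 kb before the gene. The fold enrichment, which the authors' caller gives relative to its local background, was 25.3 and 44.2 with the ARID3B antibody and 20.1 and 26.99 with the KDM4C antibody, in control and edited cells. It had 34, 28, 15 and 21 tags in that order, so the highest fold did not come with the most tags. The other peaks near the gene were 2 edited ARID3B peaks that began at 6231205 (fold enrichment 9.82) and 6535298 (13.1), and a control KDM4C peak that began at 7636786 (11.15). In RefSeq's gene order (GRCh38) the genes before KDM4C are GLDC and UHRF2 and those after it DMAC1 and PTPRD. Which of them holds this place on GRCh37 was not analysed here.

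Within 1 Mb of CDKN2A, at 21.97 Mb, each list had 0 or 1 peak. From 3 to 40 Mb, 9p as a whole held 0.135 to 0.676 peaks per Mb in each list. Whether peaks were fewer around CDKN2A than on the rest of the arm was not tested. The nearest to CDKN2A was a KDM4C peak of edited cells 438 kb after it, from 22408374 to 22408641, with 12 tags and a fold enrichment of 15.8. A control ARID3B peak lay 470 kb after it, from 22439997 to 22440248, with 11 tags and a fold enrichment of 7.71. In the other 2 lists the nearest peak was over 1 Mb away. A place without a peak in these lists shows no accumulation above its surroundings at this depth, and does not show whether the sequence is present.

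Most members were weak. The caller's score is minus 10 times log10 of its p-value, with a cutoff of 50. On 9q, scores under 60 made up 63.4% of the ARID3B list in control and 64.3% in edited cells, and 64.7% and 68.5% of the KDM4C lists. Outside the arms the shares were 56.7% and 60.8% for ARID3B and 49.9% and 56.4% for KDM4C. None of the 394 peaks of the outer 9q reached a score of 100, which allows a share of up to 0.761% (3 counts of 394). Outside the arms 12.8% and 10.3% did for ARID3B, and 23.1% and 17.6% for KDM4C. On the inner 9q, 6 of 65 and 10 of 82 scored at least 100 for ARID3B, and 8 of 30 and 5 of 36 for KDM4C. The stretch with the excess of edited peaks thus held only peaks between scores of 50 and 100.

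The next comparison asked whether control peaks were called again in edited cells, by overlap of at least 1 bp. For ARID3B this held for 26 of 145 peaks on 9q, or 17.9% (12.1 to 25.2), and for 5 of 29 on 9p, or 17.2% (5.85 to 35.8), against 25.2% on all chromosomes. For KDM4C it held for 17 of 51 on 9q, or 33.3% (20.8 to 47.9), and for 5 of 13 on 9p, or 38.5% (13.9 to 68.4), against 36.7%. The stretches of 9q differed. On the inner 9q, 22 of 65 control ARID3B peaks (33.8%, 22.6 to 46.6) were called again, and on the outer 9q 4 of 80 (5.0%, 1.38 to 12.3). For KDM4C the counts were 17 of 30 on the inner and 0 of 21 on the outer 9q, which allows up to 16.1%. Few of the outer 9q members therefore recurred. On the outer 9p, 1 of 16 control ARID3B peaks (6.25%, 0.158 to 30.2) and 1 of 5 control KDM4C peaks (20%, 0.505 to 71.6) were called again.

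Overlap between the antibodies followed the same order. In control cells, 16 of 51 KDM4C peaks on 9q (31.4%, 19.1 to 45.9) and 6 of 13 on 9p (46.2%, 19.2 to 74.9) overlapped an ARID3B peak, against 39.3% on all chromosomes. In edited cells the counts were 20 of 92 on 9q (21.7%, 13.8 to 31.6) and 5 of 15 on 9p, against 35.2%. All 16 of the control overlaps on 9q lay on the inner stretch. On the outer 9q, 3 of 56 KDM4C peaks of edited cells overlapped an ARID3B peak of the same cells.

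**Figure D3:**
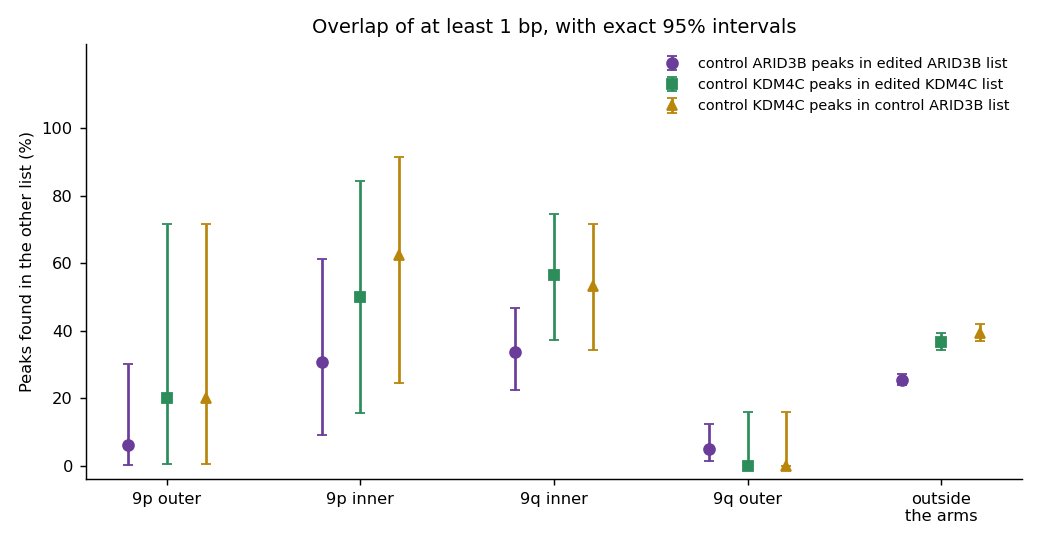
Share of control peaks found in another list, in percent (vertical axis), for 4 stretches of the chromosome 9 arms and outside the arms (horizontal axis), with bars for exact 95% intervals. The outer 9q lies lowest for all 3 overlaps, at 5.0%, 0% and 0%, and the inner 9q at 33.8%, 56.7% and 53.3%.

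When the 4 lists were merged, the arms held 627 regions, of which 584 (93.1%) were called in 1 library, against 88.1% on all chromosomes. Regions called in all 4 libraries numbered 20, or 3.19% (1.96 to 4.88), against 4.62%. Of these 20, 5 lay on 9p and 15 on the inner 9q, 12 of the 15 before 71 Mb. None of the 385 regions of the outer 9q was called in more than 2 libraries, which allows up to 0.954%. In 2 libraries 9 of the 385 were called, or 2.34% (1.07 to 4.39), against 4.84% on all chromosomes. Of these 9, 4 were called by ARID3B in control and edited cells, 3 by both antibodies in edited cells, and 2 by different antibodies in different cells. The 4 called with ARID3B in both kinds of cells began at 83697555, 90559023, 91816116 and 97109368. Their fold enrichments in control and edited cells were 10.9 and 7.03, 6.51 and 10.3, 7.96 and 9.45, and 8.23 and 13.2.

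Regions called in all 4 libraries were ranked by their lowest fold enrichment. The first by this measure lay on 9q from 70076519 to 70076845. It had fold enrichments of 37.1 and 42.2 with the ARID3B antibody and 39.9 and 42.6 with the KDM4C antibody in control and edited cells, from 27 to 35 tags. The 4 values differed little between libraries. The next, from 69710655 to 69711433, had 35.8, 39.7, 34.7 and 34.3 in the same order, from 246 to 276 tags. It had the most tags and the highest scores of any member, from 1604 to 2059. A region from 70327278 to 70327667 had 31.6, 35.2, 35.9 and 34.4. These 3 lay within 1 Mb of each other. Further out, a region from 72652890 to 72653585 had 22.8, 24.2, 24.3 and 22.4, and one from 78789973 to 78790364 had 16.5, 18.9, 16.1 and 18.7.

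On 9p the leading region, from 42818972 to 42819342, had fold enrichments of 33.5 and 40.6 with the ARID3B antibody and 38.2 and 34.7 with the KDM4C antibody. A region from 44070569 to 44070965 had 30.8, 29.5, 22.3 and 25.6. The place before KDM4C came next on the arm, and was the only region of 9p before 40 Mb called in more than 1 library. A region from 42415890 to 42416202 had 23.3, 18.9, 10.6 and 15.4, and the last, from 43048908 to 43050092, had 6.07, 5.38, 6.32 and 4.58. Across the 15 regions on 9q, edited cells had the higher fold enrichment at 10 with the ARID3B antibody and at 5 with the KDM4C antibody. The median ratios were 1.11 and 0.922. Across the 5 regions on 9p the counts were 2 and 3, with median ratios of 0.957 and 1.15. Each fold comes from the authors' caller within 1 list, so these ratios describe the lists and show no change of binding.

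**Figure D4:**
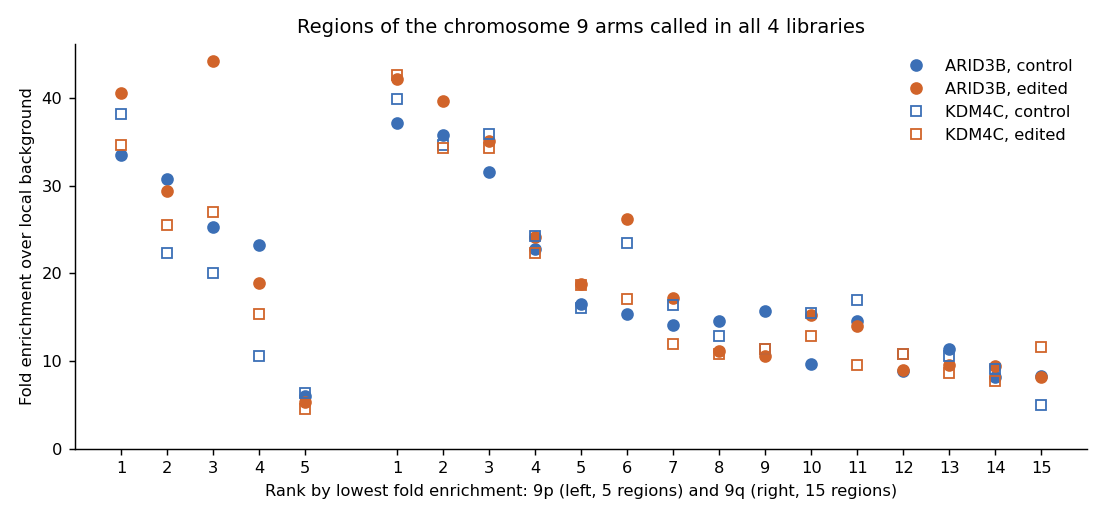
Fold enrichment over local background (vertical axis) in each of the 4 libraries at the 20 regions of the chromosome 9 arms called in all of them, ordered by their lowest value (horizontal axis). Values fall from above 30 to below 12 along the ranks of 9q, and at rank 3 of 9p the edited ARID3B library stands apart at 44.2.

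Members called with an antibody in 1 kind of cell had lower medians than those called in both, and their ranges overlapped. For ARID3B in control cells, the median was 13 tags (10 to 45) for 143 such peaks and 25 (11 to 246) for the 31 called in both. In edited cells it was 13 (9 to 65) for 337 and 24 (10 to 259) for 31. For KDM4C the medians were 13 and 23 tags in control and 12 and 20.5 in edited cells. By fold enrichment, the leading ARID3B peak of edited cells alone on 9q, from 109710329 to 109710635, had 17 tags and a fold enrichment of 15.5. The leading one of control cells alone, from 69681129 to 69681289, had 10 tags and 12.9. With the KDM4C antibody the leading ones on 9q were from 79951748 to 79951993 in edited cells (14 tags, 14.1) and from 81431263 to 81431476 in control cells (9 tags, 12.7). On 9p, ARID3B peaks from 25115777 to 25116088 in edited cells (11 tags, 14.7) and from 37303218 to 37303499 in control cells (13 tags, 14.1) led. The leading KDM4C peak of edited cells on 9p was the one 438 kb after CDKN2A. That of control cells, from 42828218 to 42828493 (13 tags, 13.3), was also called by ARID3B in control cells. The second and the third peak of each such set had fold enrichments between 9.38 and 14.7. Ranking by fold passes over broader peaks with more tags. The edited ARID3B peak with 65 tags, from 43046334 to 43047269 on 9p, had a fold enrichment of 9.19 and a score of 124.96, and was chosen for mention after its values were seen.

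The local background of each peak, the tags the caller expected from up to 10 kb around it, was recovered from its tag count and score and divided by the genome mean of its library. The caller takes no value below that mean. On 9q the median background at ARID3B peaks was 1.26 times the genome mean in control cells and 1.5 times in edited cells. Outside the arms it went the other way, from 1.26 to 1.19. For KDM4C the medians on 9q were 1.52 and 1.60, and outside the arms 1.41 and 1.30. On the inner 9q they were 1.26 and 1.53 for ARID3B and 1.87 and 1.89 for KDM4C. On the outer 9q they were 1.27 and 1.49 for ARID3B and 1.29 and 1.51 for KDM4C. In all 12 outer windows the ARID3B median of edited cells exceeded that of control cells, and for KDM4C it was higher in 9 of the 11 windows with peaks in both lists.

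Outside its inner 4.4 Mb the short arm had a background at the floor at most ARID3B peaks, but not at most edited KDM4C peaks. Within 0.01 of the genome mean lay 11 of 16 control and 20 of 25 edited ARID3B peaks of the outer 9p. Over all chromosomes the shares were 25.5% and 28.1%. For KDM4C it was 4 of 4 and 2 of 6 on the outer 9p, against 19.3% and 21.0% on all chromosomes. On 9q, 16.6% (10.9 to 23.6) of the control and 4.44% (2.45 to 7.34) of the edited ARID3B peaks lay there. The arms thus differed in the tags around their peaks, and on 9q the share at the floor was lower in edited cells.

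A peak adds its own tags to its background, and more so in a shallow library, since 10 kb held a mean of 90.5 and 77.3 tags in the ARID3B libraries and 76.6 and 60.04 in the KDM4C libraries. With the peak's own tags taken out, 55 of 80 control ARID3B peaks of the outer 9q (68.8%, 57.4 to 78.7) and 208 of 237 edited ones (87.8%, 82.9 to 91.6) had surroundings above the genome mean. On the inner 9q it was 40 of 65 control (61.5%, 48.6 to 73.3) and 69 of 78 edited ones (88.5%, 79.2 to 94.6). The rise was thus not particular to the stretch with the excess of edited peaks. Outside the arms 57.8% and 52.9% had such surroundings. For KDM4C the outer 9q had 17 of 21 and 47 of 56, and the inner 9q 25 of 30 and 32 of 36. Outside the arms 65.0% and 57.2% of KDM4C peaks did. On the outer 9p it was 1 of 16 control and 0 of 25 edited ARID3B peaks. What the raised surroundings contribute to the number of peaks called was not tested, and the copy number of the arms in either kind of cell was not analysed here.

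**Figure D5:**
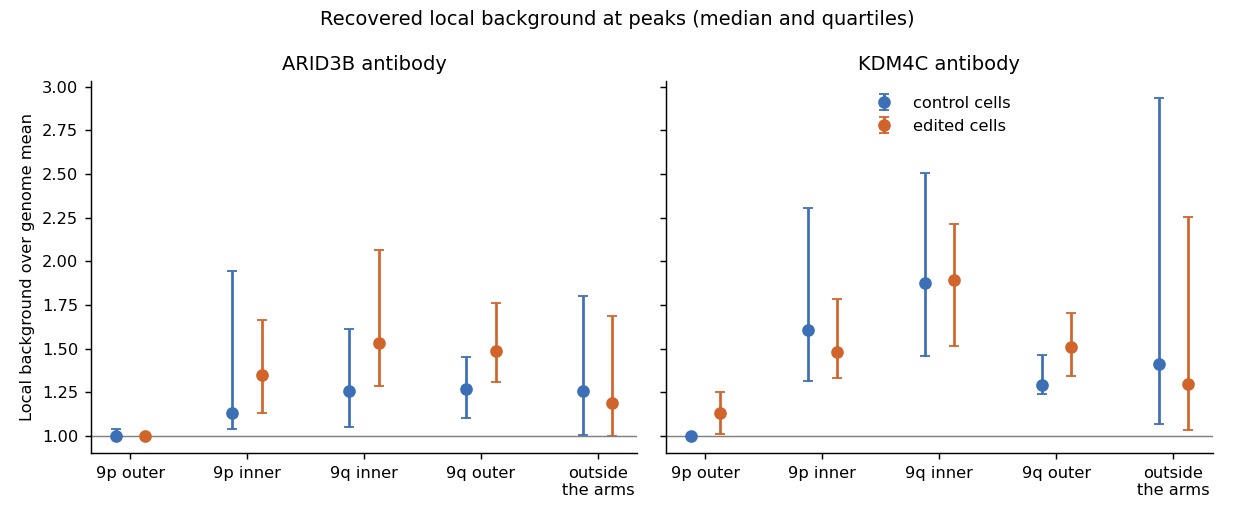
Recovered local background over the genome mean of the library (vertical axis) at the peaks of 4 stretches of the chromosome 9 arms and outside the arms (horizontal axis), with points for medians and bars for quartiles over peaks. On the outer 9q the edited medians of 1.49 and 1.51 lie above the control medians of 1.27 and 1.29, and the outer 9p lies near 1 for ARID3B. The inner 9q also has a higher edited ARID3B median, at 1.53 against 1.26.

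At places called in both kinds of cells the background could be compared peak by peak. On 9q the ARID3B background was recovered in both lists at 23 of 26 such places. It was higher in edited cells at 19 of the 23, with a median ratio of 1.16. At the places left out, the edited value solved to under 0.98 of the genome mean (0.443, 0.961 and 0.647), below the control value. Outside the arms the background was higher in edited cells at 549 of 750 recovered places, with a median ratio of 1.14. The places on 9q lay mostly on the inner stretch, and only 4 of the outer 9q entered. For KDM4C the background was higher in edited cells at 7 of 17 places on 9q (median ratio 0.982), all on the inner stretch, and at 409 of 507 outside the arms (1.18). Summit heights scaled to filtered tags had a median ratio of 1.17 for ARID3B and 1.24 for KDM4C on 9q, and of 1.15 and 1.34 outside the arms. The places on 9q called in both kinds of cells thus had ratios near or below those found elsewhere.

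Chromosomes 13 and 18 also had high ratios of edited to control ARID3B peaks, and their backgrounds serve for comparison. For KDM4C the ratio was 4.11 (2.43 to 7.31) on chromosome 13. On chromosome 18 it was 1.71 (0.907 to 3.31), an interval that includes the ratio outside the arms. Chromosome 13 went from 33 to 188 ARID3B peaks (5.70, 3.92 to 8.52). There, 60.6% of the control and 45.2% of the edited peaks had a background at the genome mean. On chromosome 18, which went from 26 to 88 (3.38, 2.16 to 5.46), those shares were 5 of 25 control peaks and 12 of 87 edited peaks. With the peak's own tags taken out, surroundings lay above the genome mean for 12.1% of the control and 27.1% of the edited ARID3B peaks of chromosome 13. On chromosome 18 the shares were 48.0% and 75.9%, and on 9q 65.5% and 87.9%. The share was thus higher in edited cells on all 3, and lower outside the arms as a whole. It was also higher on 9p (21.4% and 30.6%) and on the inner 9q (61.5% and 88.5%). The ARID3B peak ratios of those parts have intervals that include the ratio outside the arms. On the outer 9p the share was lower in edited cells, at 6.25% and 0%. Whether the share goes with the peak ratio was not tested.

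At the 68.5 Mb border the nearest control ARID3B peaks inside and outside the span were alike in fold enrichment but not in tags. The first inside began at 68501154 (53 tags, fold enrichment 5.36) and the last outside began at 68490852 (35 tags, 5.33). In the edited ARID3B, control KDM4C and edited KDM4C lists the fold enrichments there were 5.68, 9.08 and 6.90 inside. Outside they were 5.12, 6.17 and 6.28 in the same order. At 44.4 Mb the last control ARID3B peak inside began at 44070609 (54 tags, 30.8) and the first outside at 44795661 (30 tags, 6.36). At 3 Mb they began at 3765685 (11 tags, 7.71) and 2899321 (11 tags, 9.90), and at 138.2 Mb at 137514278 (22 tags, 6.75) and 138333818 (14 tags, 9.87). In the edited KDM4C list the first member of 9p was the place before KDM4C, and no peak lay between the short-arm end of the chromosome and 3 Mb.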

How the data were processed

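Chromatin from OECM1 cells was immunoprecipitated and sequenced, with 1 library in each of 4 groups taken from the sample titles. Peaks were called with MACS 1.4.2 in each library alone, without a control library, per the file headers (p-value cutoff 1e-05, effective genome 2.7 Gb, regional window 10 kb, at most 1 tag per position). The submitters' processing notes name GRCh37, the aligner BWA 0.7.12 and bcl2fastq 2.1.5. Tag counts in the deposited lists are raw whole numbers for each peak. Per the file headers, the score is the caller's p-value as log10 multiplied by minus 10, and the fold enrichment is a deposited ratio to local background.

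Members, spans and borders were chosen with earlier results of these data known. Overlaps required 1 bp. Shares have Clopper-Pearson 95% intervals. Ratios have intervals from the binomial of the edited count given the sum, and ratios of ratios from the conditional odds ratio (scipy 1.17.1). Background was solved from the Poisson probability of more tags than observed. Values under 0.98 of the genome mean were left out, as not recovered (0.919% to 1.41% of a list, 6 members). Summit heights came out whole within 0.05 for 91.4% to 96.3% of the rest. The steps were tested on simulated data. Named were, by rule, the 3 leading peaks per arm, antibody and kind of cell (the text gives the first), the 5 leading regions of all 4 libraries per arm, peaks within 1 Mb of the 2 genes, extreme windows and the members at each boundary. Alternatives were other score, fold and overlap limits, grouped peaks, extended arms, depth scaling and other windows. No genome on GRCh37 was used here, so no sequence is printed.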

Additional observations from a re-analysis of the deposited data

Results flagged for a closer look

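In 2 windows of 9q the antibodies went in opposite directions, with more ARID3B and fewer KDM4C peaks in edited than in control cells. From 68.5 to 70 Mb, ARID3B went from 20 to 25 peaks and KDM4C from 16 to 14, a ratio of 0.875 (95% interval 0.396 to 1.91). From 85 to 90 Mb, ARID3B went from 7 to 18 and KDM4C from 3 to 2, a ratio of 0.667 (0.0557 to 5.82). Whether the antibodies differ there was not tested, and both KDM4C intervals include 1.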

How the results depend on the processing

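Of 100 alternative values, 73 stayed within the interval or tolerance of the reported one. With a score of at least 100, the 9q ratio was 1.67 for ARID3B (6 to 10 peaks) and turned to 0.625 for KDM4C (8 to 5, 0.161 to 2.17). Outside the arms the KDM4C counts at that limit were 331 in control and 314 in edited cells. With a fold enrichment of at least 10 the KDM4C ratio on 9q was 1.18. Limited to the outer 9q, a border set after seeing the data, the ratios were 2.96 and 2.67, and the shares called again 5.0% (ARID3B) and 0% (KDM4C), with 0% of KDM4C peaks overlapping ARID3B.

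Strong peaks recurred more. With a score of at least 60 in both lists, the share called again was 40% on 9p and 34.0% on 9q for ARID3B and 100% and 55.6% for KDM4C, and the overlap of KDM4C with ARID3B peaks was 100% and 66.7%. From a score of 100 in the first list they were 100% and 83.3%, 100% and 100%, and 100% and 100%, from 3 to 8 peaks each. ARID3B windows called higher on 9q fell from 11 to 6 with a score of at least 60 and to 6 with 10 Mb windows, of which there are fewer. On 9p they fell from 3 to 0, to 1, and to 0 with a minimum of 10 peaks. At peaks called in 1 library only, the edited over control background on 9p for KDM4C was 1.22, against 0.994 with all peaks, and on 9q 1.17 against 1.06. With a fold enrichment of at least 10, the 9q ratio fell below the 9p ratio (0.835 times for ARID3B, 0.791 for KDM4C), within intervals that include 1. For KDM4C it was also below with a score of at least 60 (0.967 times) and at least 100 (0.641), again within intervals that include 1. For ARID3B it stayed above at these score limits (1.53 and 1.32 times). The cause of these changes was not tested. With 1 library per group, no library could be left out and no paired analysis was possible because no group had replicates. The 9p values rest on 13 to 49 peaks a list.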

Other observations

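By median gap, peaks of the outer 9q lay farther apart than those of the inner 9q and closer than those of the outer 9p. The median gap between neighbours was 497 kb in control and 141 kb in edited cells with the ARID3B antibody, and 1946 and 631 kb with the KDM4C antibody. On the inner 9q the median gaps were 70.4 and 66.5 kb for ARID3B and 48.2 and 66.4 kb for KDM4C. On the outer 9p they were 1782 and 1218 kb for ARID3B and 3462 and 6708 kb for KDM4C. When peaks within 10 kb of each other were counted as 1, the outer 9q kept 79 of 80 control and 227 of 237 edited ARID3B peaks. The inner 9q kept 54 of 65 and 66 of 82. On the outer 9p all 16 and 25 ARID3B peaks stayed separate, with a largest gap of 8484 kb in control cells.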
